A study of Mus musculus with 8 samples.

Results

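The loci of 8 interferon regulatory factor (IRF) genes, *Irf1*, *Irf2*, *Irf3*, *Irf4*, *Irf5*, *Irf7*, *Irf8* and *Irf9*, were examined for binding of PU.1 and CEBPA in a murine acute myeloid leukaemia line without and with active wild-type PU.1. A peak was assigned to a gene when its centre lay in the gene or within 20 kb of it in the GENCODE annotation of mm10, which placed 60 of the 67673 peaks of 4 ChIP-Seq libraries at the 8 loci. In this assay an antibody pulls down the DNA that its target occupies, the DNA is sequenced, and a peak is a stretch where reads pile up. The cells were clonal derivatives of X18.1.1, a line from a radiation-induced leukaemia in which one *Pu.1* allele was deleted and the other carried a mutated DNA-binding domain and a deletion in the PEST region. The PU.1− cells carried the empty vector (EV) of a retrovirus with puromycin resistance, and the PU.1+ cells carried in the same vector PuER, in which the wild-type protein is joined to part of the oestrogen receptor and becomes active in 4-hydroxytamoxifen (OHT). Both had been kept in 100 nM OHT for 2 h, both retained the mutant PU.1, and each was a line grown from a single cell, so the clone and the transgene cannot be told apart. The antibody against PU.1 recognised the mutant protein as well as the fusion. There was 1 library for each antibody and line, so no test between PU.1− and PU.1+ was possible and no p-values were computed. The peaks were coordinates without heights or read counts, and a missing peak means only that none was listed at the calling threshold.

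IRF proteins are transcription factors that bind GAAA repeats in the promoters and enhancers of interferon and interferon-stimulated genes. PU.1, an ETS-family factor of the myeloid and B-cell lineages, recognises a purine-rich site around GGAA. IRF4 and IRF8 bind poorly alone and are recruited next to PU.1 on composite ETS-IRF elements, in which a GGAA core is followed by a GAAA core. CEBPA, a basic leucine zipper factor, acts beside PU.1 in granulocytes and monocytes. The question that the comparison addressed was where these 2 factors were found at the IRF genes themselves when wild-type PU.1 was added to cells that had only the mutant.

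The central 80 bp of 9 PU.1 peaks of PU.1+ are given below, because they hold the recognition sites that the results refer to. All are reference sequence of GRCm38 (mm10), plus strand, with coordinates counted from 1, and the distance given is that of the peak centre from the start of the gene. Capitals mark exact matches on either strand to GGAAGT (called the ETS site here), its extension GAGGAAGT (PU.1-type) or the composite site (ETS-IRF, GGAA and GAAA separated by any 2 bases), and in the first sequence also the IRF site (GAAA and GAAA separated by any 2 bases). On the minus strand GGAAGT reads ACTTCC, and the composite site reads TTTC and TTCC. The first pair came from PU.1 peaks called in both lines.
*Irf2*, promoter, chr8:46739471-46739550: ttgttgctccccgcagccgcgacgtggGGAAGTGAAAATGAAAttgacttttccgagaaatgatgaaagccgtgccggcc
*Irf1*, +25.4 kb, chr11:53795405-53795484: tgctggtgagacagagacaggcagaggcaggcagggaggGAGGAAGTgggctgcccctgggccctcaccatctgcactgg
The next 4 came from PU.1 peaks that overlapped a CEBPA peak in PU.1+, with neither factor called there in PU.1−.
*Irf2*, +38.5 kb, chr8:46778201-46778280: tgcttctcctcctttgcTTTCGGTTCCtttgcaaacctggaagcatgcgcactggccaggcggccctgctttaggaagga
*Irf2*, +105.0 kb, chr8:46844662-46844741: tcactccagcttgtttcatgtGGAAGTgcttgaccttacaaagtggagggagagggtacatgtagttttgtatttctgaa
*Irf2*, +112.0 kb, chr8:46851736-46851815: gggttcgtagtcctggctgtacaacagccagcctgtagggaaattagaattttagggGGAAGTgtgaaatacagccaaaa
*Irf5*, −2.2 kb, chr6:29524415-29524494: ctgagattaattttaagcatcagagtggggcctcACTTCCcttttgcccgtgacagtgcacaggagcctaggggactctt
The last 3 came from PU.1 peaks listed in PU.1+ alone, with no CEBPA peak.
*Irf1*, +24.2 kb, chr11:53794135-53794214: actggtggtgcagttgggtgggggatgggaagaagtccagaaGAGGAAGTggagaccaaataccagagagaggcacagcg
*Irf4*, +17.8 kb, chr13:30766989-30767068: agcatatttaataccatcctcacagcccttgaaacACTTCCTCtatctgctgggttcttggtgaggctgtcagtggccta
*Irf8*, +38.4 kb, chr8:120774737-120774816: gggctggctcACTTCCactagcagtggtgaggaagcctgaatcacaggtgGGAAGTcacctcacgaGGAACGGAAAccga

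At the IRF loci, 3 PU.1 peaks were listed for PU.1− and 21 for PU.1+. They lay at 2 and 6 of the 8 genes, beside 23.7% and 41.4% of the 21951 protein-coding genes. Of the 21, 2 had a PU.1− counterpart that they overlapped by at least 1 bp and are called shared, and 19 had none and are called new. The 19 new peaks were 90.5% of the PU.1+ peaks at these loci (exact Clopper-Pearson 95% interval 69.6 to 98.8%, counting error only), compared with 81.1% of all 15683 PU.1 peaks of PU.1+. The interval includes the genome-wide share. It is wide and treats the peaks as independent, although 10 of the 21 lay at *Irf2*, so it does not decide whether the loci differ. The whole list was also longer in PU.1+ than in PU.1−, at 15683 against 5288 peaks. New PU.1 peaks lay at 6 of the 8 genes, a share to be read beside the 36.7% of protein-coding genes with at least 1 new PU.1 peak in the same kind of window. The PU.1 count was higher in PU.1+ than in PU.1− at 5 genes, was equal at 3 and was lower at none. *Irf2* alone held 9 of the new peaks, 47.4% of them, in a window that made up 29.3% of the bases searched. The maps of the 8 loci place each peak along its gene.

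**Figure D1:**
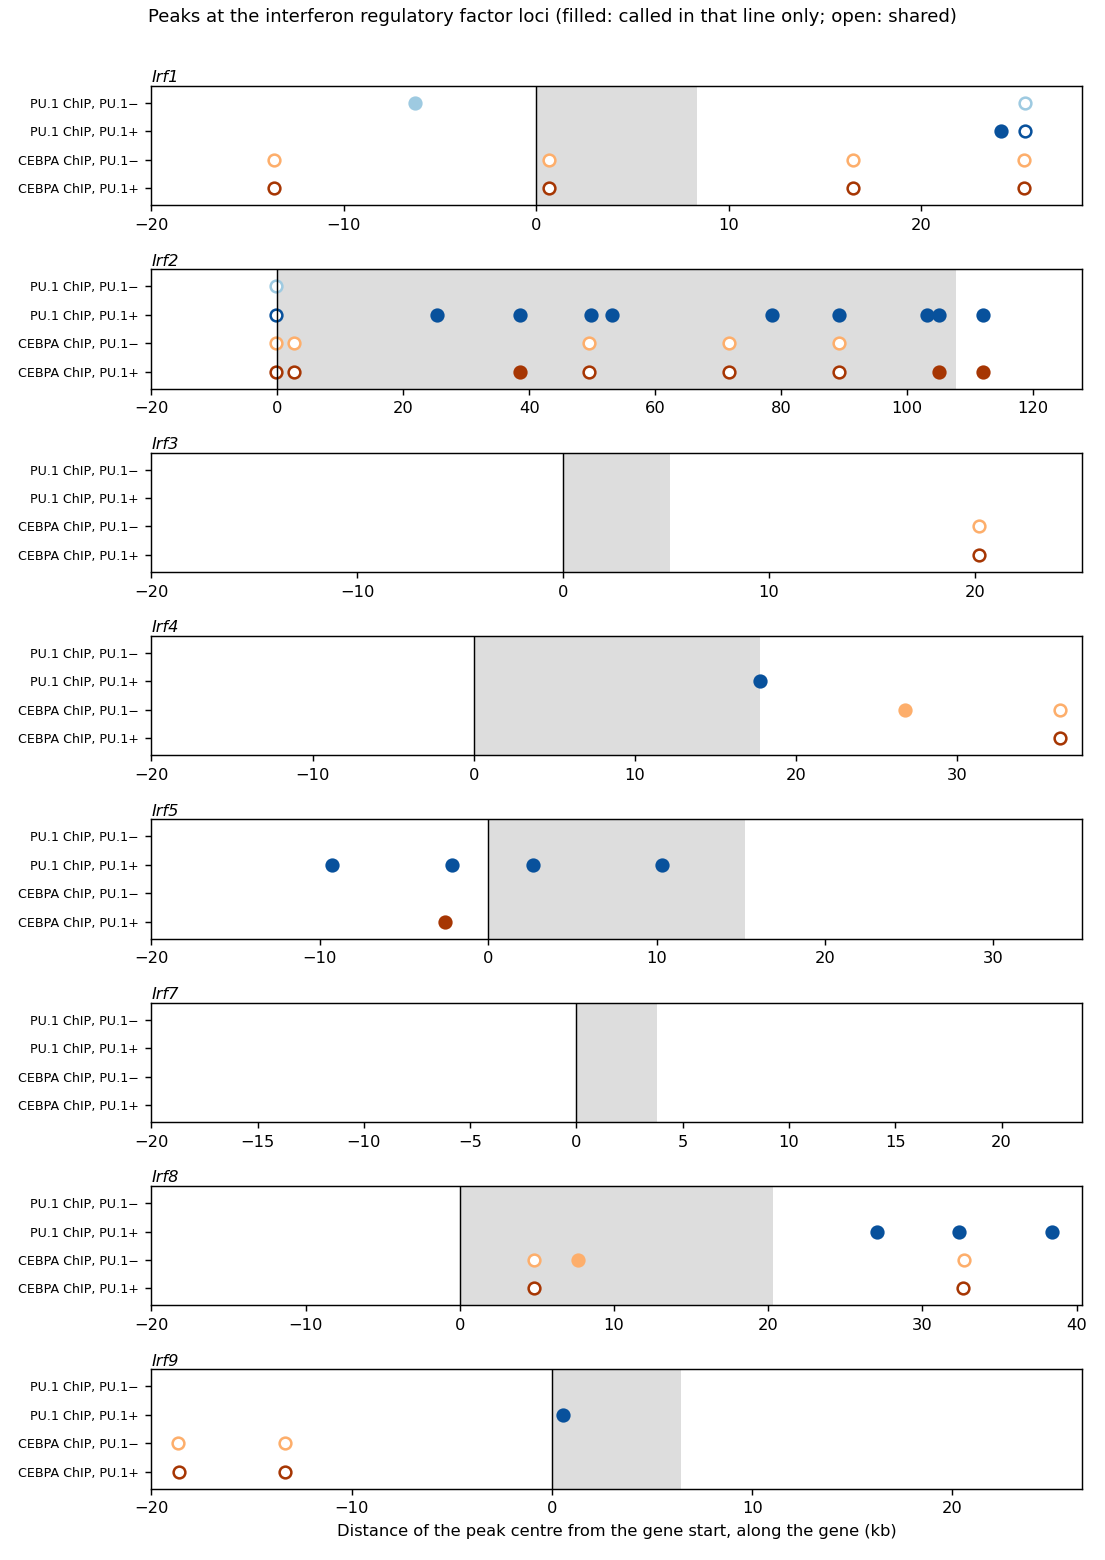
Peaks of the 4 libraries along the 8 IRF genes, with the distance of the peak centre from the gene start in kb on the horizontal axis and 1 row for each library. Grey shading marks the gene, filled circles are peaks called in that line only and open circles are shared peaks, and the filled PU.1+ circles spread over the *Irf2* gene while *Irf7* has no peak.

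*Irf1* and *Irf2* encode a pair of related factors that bind the same elements, IRF1 as an interferon-induced activator and IRF2 largely as its antagonist. *Irf2* (chr8:46739732-46847458, plus strand, 107.7 kb) had 1 PU.1 peak in PU.1− and 10 in PU.1+. The shared peak lay at the promoter, with its centre 221 bp before the gene start in PU.1+ and 251 bp before it in PU.1−. It is the only peak position of the gene's window that was called in all 4 libraries, the CEBPA peak of PU.1+ overlapping it by 341 bp. As the first sequence shows, an ETS site, a composite site and an IRF site overlap there in a single run of bases.

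The 9 new PU.1 peaks of *Irf2* were spread from +25.4 kb to +112.0 kb. Of these, 7 were in introns, 1 in an exon of a non-coding transcript at +78.6 kb and 1 downstream, 4318 bp past the end of the gene. One of the intronic peaks, at +53.2 kb, was 593 bp from an internal transcript start of *Irf2* and carried 2 ETS sites in its central 80 bp. *Irf2* was the closest protein-coding start for each of the 9, and no other protein-coding gene reached into its window. Among protein-coding genes, 46 had 9 or more new PU.1 peaks and 99.8% had fewer. Most of these genes were long: of the 2260 genes whose window was at least as long as that of *Irf2*, 44 had 9 or more, and their median was 1.0. Per 100 kb of window, *Irf2* had 6.77 PU.1 peaks in PU.1+ and *Irf5* had 7.24.

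At *Irf1* (chr11:53770014-53778374, plus strand), each line had 2 PU.1 peaks, and the positions differed in part. A peak 6.3 kb before the start, with an ETS site 4 bp from its centre, was called in PU.1− only, which made *Irf1* 1 of the 8 genes with such a peak, against 13.7% of protein-coding genes. The peak at +25.4 kb was shared, its centre differing by 1 bp between the lines, and a new peak lay at +24.2 kb. Both carried the PU.1-type site, as printed in the second and seventh sequences. These downstream peaks lay closer to the start of another protein-coding gene, *Gm12216*, at 430 bp and 1700 bp, than to that of *Irf1*. Shared PU.1 peaks were found at 2 of the 8 genes, *Irf1* and *Irf2*, compared with 13.4% of protein-coding genes.

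*Irf3*, *Irf7* and *Irf5* encode factors that act downstream of nucleic acid sensors and Toll-like receptors, IRF3 and IRF7 in the induction of type I interferon and IRF5 in that of inflammatory cytokines in myeloid cells. The 3 loci differed. *Irf5* (chr6:29526625-29541871, plus strand) had no PU.1 peak in PU.1− and 4 in PU.1+, a number that 96.7% of protein-coding genes did not reach among new peaks. They lay at −9.3 kb, −2.2 kb, +2.6 kb and +10.3 kb. The peak at +2.6 kb was in an intron and 24 bp from a transcript start of *Irf5*, and the peak at +10.3 kb fell in an annotated untranslated stretch, with a composite site 1 bp from its centre. *Irf3* (chr7:44997648-45002848, plus strand) had no PU.1 peak in either line, and *Irf7* (chr7:141262706-141266481, minus strand) had no peak in any of the 4 libraries, as did 34.5% of protein-coding genes. Their windows were the shortest of the 8, at 45.2 kb and 43.8 kb.

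*Irf4* and *Irf8* encode the partners of PU.1 on composite elements, IRF4 best known in B cells, plasma cells and T cells and IRF8 in monocytes and dendritic cells. *Irf8* (chr8:120736358-120756694, plus strand) had no PU.1 peak in PU.1− and 3 in PU.1+. The 3 new peaks all lay downstream, at +27.1 kb, +32.4 kb and +38.4 kb, that is 6737 bp, 12030 bp and 18083 bp past the end of the gene, and none lay in the gene. The farthest held 2 ETS sites and a composite site, all in the last sequence printed above, and an AP-1 site (TGANTCA) at its centre. It was also the PU.1 peak closest to the 20-kb limit on the inside, and the next PU.1 peak of *Irf8* beyond the limit, at +42.9 kb, was shared. *Irf4* (chr13:30749226-30766976, plus strand) had no PU.1 peak in PU.1− and 1 in PU.1+, its centre 53 bp past the gene end with a PU.1-type site 1 bp from the centre.

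IRF9 is the DNA-binding subunit of the ISGF3 complex, through which type I interferon receptors act on their target genes. *Irf9* (chr14:55603571-55610030, plus strand) had no PU.1 peak in PU.1− and 1 in PU.1+. The peak centre lay in coding sequence 573 bp into the gene and 159 bp from a transcript start. No GGAAGT was found anywhere in its 400 bp. Its central 80 bp held a match to TTCNNNGAA, the gamma-activated sequence (GAS) bound by STAT dimers, which 2.71% of all PU.1 peaks of PU.1+ also held.

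**Figure D2:**
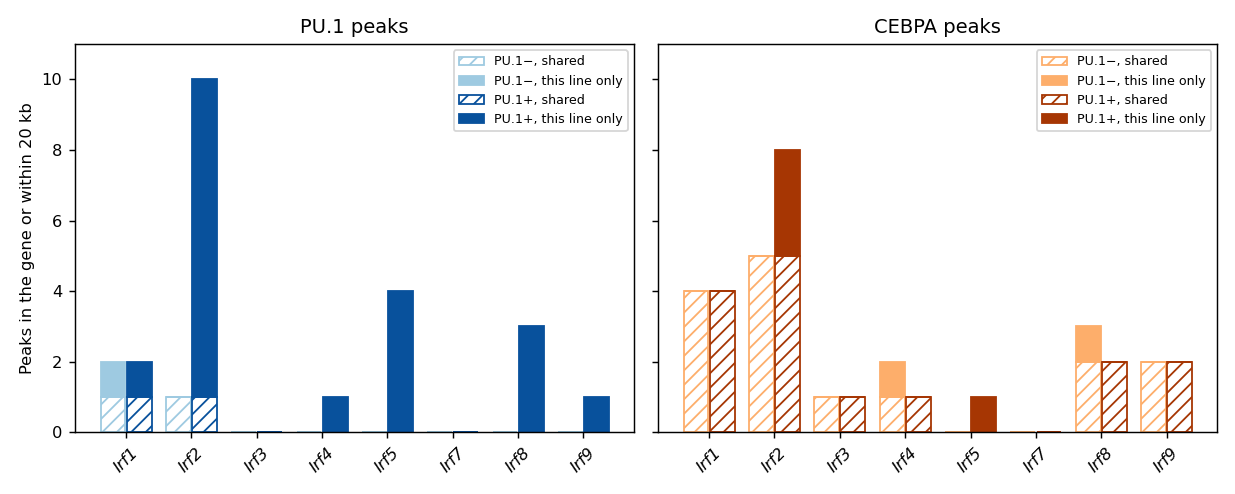
Number of PU.1 peaks (left) and CEBPA peaks (right) in each IRF gene or within 20 kb of it, with a bar for PU.1− and a bar for PU.1+. Hatched parts are shared peaks and solid parts are peaks called in that line only: PU.1 bars of PU.1+ are mostly solid, led by *Irf2* with 9 and *Irf5* with 4, and CEBPA bars are mostly hatched.

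CEBPA peaks at the loci were nearly as many in PU.1− as in PU.1+, with 17 and 19. The order of the lines depended on the window, with 43 in PU.1− against 41 in PU.1+ for a flank of 50 kb and 59 against 53 for 100 kb. Within 20 kb they lay at 6 and 7 of the 8 genes, beside 56.5% and 51.3% of protein-coding genes. In each line 15 were shared, and the smallest overlap between a shared pair was 344 bp of 400. There were 4 CEBPA peaks in PU.1+ only (21.1%, 6.05 to 45.6%), compared with 12.1% of all 20583 CEBPA peaks of PU.1+, and 2 in PU.1− only (11.8%, 1.46 to 36.4%), compared with 30.7% of all 26119 of PU.1−. For a flank of 50 kb these were 5 in PU.1+ only and 7 in PU.1− only, and for 100 kb 6 and 12. Shared CEBPA peaks lay at 6 of the 8 genes against 48.3% of protein-coding genes, PU.1+ only peaks at 2 against 11.4%, and PU.1− only peaks at 2 against 30.1%. The CEBPA count was higher in PU.1+ at *Irf2* (8 against 5) and *Irf5* (1 against 0), lower at *Irf4* (1 against 2) and *Irf8* (2 against 3), and equal at the other 4 genes.

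The CEBPA peaks called in PU.1+ only were 3 at *Irf2*, at +38.6 kb, +105.0 kb and +112.1 kb, and 1 at *Irf5*, at −2.6 kb. Each of the 4 overlapped a new PU.1 peak (4 of 4, 39.8 to 100.0%), whereas 36.8% of the 2484 CEBPA peaks called in PU.1+ only did so genome-wide. The overlaps were 309 bp, 338 bp and 353 bp at *Irf2* but 20 bp at *Irf5*, where the 2 centres were 380 bp apart. With an overlap of 50% of both peaks required, or with centres within 100 bp, 3 of the 4 remained. The genome-wide 36.8% holds for an overlap of at least 1 bp, and no genome-wide share is given under these stricter rules. Of these CEBPA peaks, 3 held the CEBP site TTGCNNAA in the central 80 bp, at 28 bp and 1 bp from the centre at *Irf2* +105.0 kb and +112.1 kb and at 25 bp from it at *Irf5*. The central 80 bp of all 3 *Irf2* peaks also contained GGAAGT, and those of the *Irf5* peak did not. *Irf2* and *Irf5* were thus 2 of 8 IRF genes with new peaks of both factors, against 8.23% of protein-coding genes.

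The CEBPA peaks called in PU.1− only were at +7.7 kb in an intron of *Irf8* and at +26.8 kb, downstream, of *Irf4*. Neither overlapped a PU.1 peak. Both genes had a new PU.1 peak, as did 6 of the 8 genes in all. The remaining CEBPA peaks of *Irf8* were shared, one at +4.8 kb with a CEBP site 8 bp from its centre in PU.1+, the other at +32.7 kb and overlapping the new PU.1 peak at +32.4 kb by 112 bp. At *Irf4* the shared CEBPA peak lay at +36.4 kb and held 2 CEBP sites in its central 80 bp. Besides those that overlapped PU.1, *Irf2* had shared CEBPA peaks at +2.6 kb and +71.7 kb. At *Irf1*, all 4 CEBPA peaks were shared, at −13.6 kb, +0.7 kb, +16.5 kb and +25.4 kb. At *Irf3* and *Irf9* the CEBPA peaks were shared as well, but their centres were 93 bp from the start of *Rras*, 10 bp from that of *Emc9* and 75 bp from that of *Psme2* in PU.1+. The IRF gene had the nearest protein-coding start for 14 of 19 CEBPA peaks and 19 of 21 PU.1 peaks of PU.1+.

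Merged by overlap, the 60 peaks fell at 34 positions, of which 13 had PU.1 alone, 12 CEBPA alone and 9 both. Only 2 positions, the *Irf2* promoter and the *Irf1* +25.4 kb site, were called in all 4 libraries. Positions are given for these loci alone, so no genome-wide share stands beside these counts. For shared PU.1 peaks of PU.1+ the overlap with CEBPA was counted genome-wide. At the loci 2 of 2 (15.8 to 100.0%) overlapped a CEBPA peak of PU.1+, and likewise of PU.1−. Of all 2969 shared PU.1 peaks, 58.2% and 59.5% did so. New PU.1 peaks overlapped a CEBPA peak of PU.1+ in 7 of 19 cases (36.8%, 16.3 to 61.6%), compared with 23.2% of all 12714 new PU.1 peaks. The interval included the genome-wide share, and with *Irf2* left out, an alternative chosen after the data were seen, 2 of 10 did so. In 3 of the 7 the CEBPA peak was shared, and CEBPA was also called there in PU.1−, without PU.1: *Irf2* +89.1 kb with an overlap of 291 bp, *Irf8* +32.4 kb with 112 bp and *Irf2* +49.9 kb with 4 bp. A CEBPA peak of PU.1− was thus overlapped by 3 of 19 new PU.1 peaks (15.8%, 3.38 to 39.6%), against 18.1% genome-wide. A CEBPA peak called in PU.1+ only was overlapped by 4 of 19 (21.1%, 6.05 to 45.6%), against 7.17%. Both intervals included the genome-wide share. With centres required to lie within 100 bp, 3 of the 7 remained, and with 50% overlap of both peaks 4 did. The 23.2% holds for an overlap of at least 1 bp, and no genome-wide share is given under these stricter rules. The 12 new PU.1 peaks without CEBPA included all of those at *Irf1*, *Irf4* and *Irf9*, 4 at *Irf2*, 3 at *Irf5* and 2 at *Irf8*.

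The sites in the central 80 bp were counted as exact matches on both strands. GGAAGT was present in 13 of 21 PU.1 peaks of PU.1+ at the IRF loci (61.9%, 38.4 to 81.9%), in 43.5% of all PU.1 peaks of PU.1+ and in 4.44% of windows 2000 bp to either side of those peaks. GAGGAAGT, which contains GGAAGT, was present in 5 of 21 (23.8%, 8.22 to 47.2%) against 15.2% and 0.475%. The composite site was likewise present in 5 of 21, against 11.8% and 0.842%, and every interval included the genome-wide share. The CEBP site was in 0 of 21, which allows a share of up to 16.1% (exact interval), and in 7.31% of all PU.1 peaks. Over the whole 400 bp it was in 9 of 21 (42.9%) against 24.9%. Of the other sites, the IRF site was in 1 of 21 against 2.54% of all PU.1 peaks and the GAS site in 2 against 2.71%. The AP-1 site was in 1 against 3.9% and a RUNX site (TGTGGT or TGCGGT) in 1 against 11.5%. A match is a description of letters and not evidence of binding, and the reference may differ from the genome of the line.

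The composite sites of the 5 peaks differ in the 2 bases between the cores. They are written here in the orientation of the motif, with the GGAA core first.
*Irf2* promoter: GGAAGTGAAA
*Irf2* +38.5 kb: GGAACCGAAA
*Irf2* +49.9 kb: GGAACTGAAA
*Irf5* +10.3 kb: GGAAATGAAA
*Irf8* +38.4 kb: GGAACGGAAA
The first was in a shared peak and the other 4 in new ones, so composite sites were in 4 of 19 new peaks (21.1%, 6.05 to 45.6%) against 13.1% of all new PU.1 peaks. No 2 of the 5 were identical. The GGAAGT site was in 11 of 19 new peaks (57.9%) against 42.9%. There were 5 new peaks with neither GGAAGT, the composite nor the IRF site in the central 80 bp, namely those at *Irf2* +103.1 kb, *Irf5* −9.3 kb and +2.6 kb, *Irf8* +27.1 kb and *Irf9*. The share of all new PU.1 peaks that lack every one of these sites was not counted. Taken singly, GGAAGT was in 42.9% of them, the composite in 13.1% and the IRF site in 2.65%, so peaks without these sites were common genome-wide. All 3 PU.1 peaks of PU.1− at the loci carried GGAAGT centrally, as did 36.5% of all PU.1 peaks of PU.1−.

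CEBPA peaks of PU.1+ at the loci held the CEBP site in 9 of 19 cases (47.4%, 24.4 to 71.1%), against 38.2% of all CEBPA peaks of PU.1+ and 3.25% of the windows to either side. GGAAGT was in 5 of 19 (26.3%, 9.15 to 51.2%) against 10.6%. At a promoter, defined as within 1000 bp of a transcript start of a protein-coding gene, were both shared PU.1 peaks and 3 of 19 new ones (15.8%, 3.38 to 39.6%), against 17.4% and 10.7% genome-wide, and 6 of 19 CEBPA peaks of PU.1+ (31.6%, 12.6 to 56.6%), against 17.5%. The nearest start was that of *Gm12216*, *Rras*, *Emc9* or *Psme2* for these promoter CEBPA peaks, except those at *Irf1* +0.7 kb and the *Irf2* promoter. For the shared PU.1 peak of *Irf1* the nearest start was also that of *Gm12216*. The plot of motif shares sets the loci beside all peaks.

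**Figure D3:**
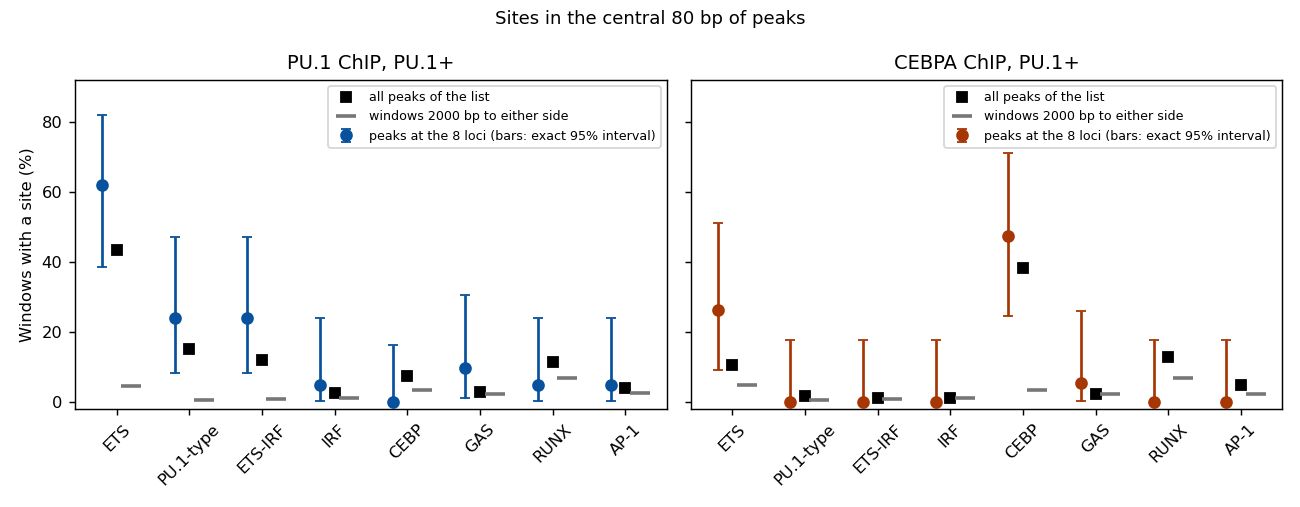
Share of windows (%) with at least 1 exact match to each motif in the central 80 bp, for PU.1 peaks (left) and CEBPA peaks (right) of PU.1+. Coloured circles are peaks at the 8 IRF loci with exact 95% intervals, black squares all peaks of that library and grey dashes the windows 2000 bp to either side. Shares at the loci are highest for the ETS site under PU.1 (61.9%) and the CEBP site under CEBPA (47.4%).

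Peaks were denser in the IRF windows than in protein-coding windows as a whole. The windows were not matched for gene length or for starts of neighbouring genes, near which some of the IRF peaks lay. What these add to the contrast was not tested. PU.1 peaks of PU.1+ numbered 41.6 per Mb over the 0.505 Mb of the IRF windows, and 8.47 per Mb over the 1430.0 Mb of all protein-coding windows merged. The values were 5.94 and 3.02 for PU.1 in PU.1−, 33.7 and 14.5 for CEBPA in PU.1−, and 37.6 and 11.4 for CEBPA in PU.1+. With *Irf2* left out, the IRF windows had 30.8 PU.1 peaks per Mb in PU.1+ and 5.6 in PU.1−. For CEBPA the values without *Irf2* were 33.6 in PU.1− and 30.8 in PU.1+, so the order of the lines turned. The median number of new PU.1 peaks was 1.0 over the 8 genes and 0.0 over protein-coding genes, whose 95th percentile was 3 and 99th percentile 6. *Irf2* lay above the latter, *Irf5* above the former and *Irf8* at it, while *Irf1*, *Irf4* and *Irf9*, with 1 each, shared a count that 36.7% of protein-coding genes reached.

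**Figure D4:**
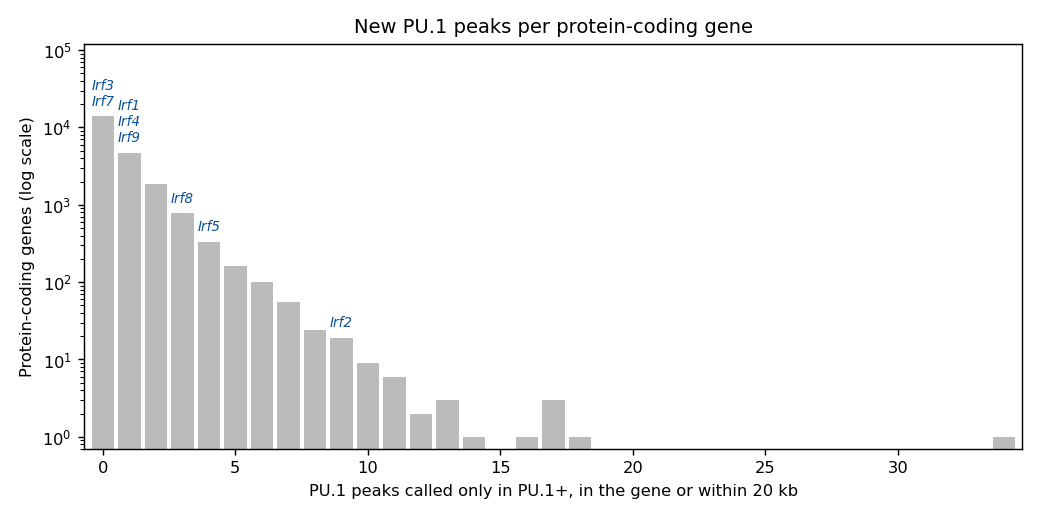
Number of protein-coding genes (vertical axis, log scale) by the number of new PU.1 peaks in the gene or within 20 kb (horizontal axis). Blue names give the bar of each IRF gene: *Irf3* and *Irf7* are at 0, *Irf1*, *Irf4* and *Irf9* at 1, *Irf8* at 3, *Irf5* at 4 and *Irf2* at 9, and the highest gene had 34.

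The gene most like *Irf2* by the summed difference over its 6 peak counts (new, shared and PU.1− only, for each antibody) was *Dock10*, which differed by 3, followed by *Sla*, which differed by 4. *Dock10* had 9 new and 1 shared PU.1 peaks and 3 PU.1+ only CEBPA peaks, the same numbers as *Irf2*.

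Genes around the IRF factors in the interferon pathway were counted in the same way, from a list of 33 receptors, kinases, sensors, partners, interferon-stimulated genes and *Stat2*, of which 32 were found as protein-coding. New PU.1 peaks lay at 19 of the 32, shared PU.1 peaks at 9 and PU.1− only peaks at 4, beside 36.7%, 13.4% and 13.7% of all protein-coding genes. The median count of new peaks was 1.0, against 0.0 over protein-coding genes. By role, new PU.1 peaks were at 4 of 4 receptor genes, 4 of 5 kinases, 3 of 6 sensors and adaptors, 4 of 7 partners and 3 of 9 interferon-stimulated genes, and at *Stat2*, each to be read beside the same 36.7%. The most were at *Jak1*, a kinase of the interferon receptors, and *Batf3*, a partner of IRF4 and IRF8 in dendritic and T cells, with 4 each. *Ifngr1*, a chain of the interferon-gamma receptor, and *Stat2*, which joins IRF9 in ISGF3, had 3 each. PU.1 peaks in PU.1− were 0 at *Jak1*, *Ifngr1* and *Stat2* and 1, shared, at *Batf3*. CEBPA peaks in PU.1+ only were at 7 of the 32, shared CEBPA peaks at 22 and those of PU.1− only at 17, beside 11.4%, 48.3% and 30.1% of protein-coding genes, *Jak1* having 3 of the latter and no CEBPA peak in PU.1+.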

How the data were processed

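The series had 8 samples, of which 4 libraries were used: PU.1 and CEBPA ChIP-Seq of the EV (PU.1−) and PuER (PU.1+) lines. Those for H3K27Ac and IgG were left out. The authors aligned reads to mm10 with Bowtie2 2.0.6, called peaks per library with MACS2 2.0.10 and deposited coordinates, all 400 bp wide. The calling threshold, the step that set the width and the read depth are not given in the sources used here. The study's text also mentions time 0, while the labels give 2 h for both lines.

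Genes came from GENCODE M21 and sequence from GRCm38, the same build. Peak centres within 20 kb of a gene were assigned to it. The background was the same count over all protein-coding genes. Peaks overlapping by 1 bp were shared. The 95% intervals (Clopper-Pearson) reflect counting error alone and treat peaks as independent, although several lie at the same gene. The genes, pathway list, motifs and alternatives were chosen with earlier results of these data known. Genes outside the 8 were named by a rule: the nearest to *Irf2* in peak counts (11 were tied at a difference of 5 and are not named) and the pathway genes with most new PU.1 peaks. Neighbouring genes of peaks, 2 printed sequences (the shared peaks) and the alternatives without *Irf2* and for joint new peaks were chosen after the data were seen. No other IRF gene was analysed here, and 1 gene of the pathway list is not reported here. Alternatives were other flanks, overlap rules, motif windows and promoter distances. Overlap, window and motif steps were tested on simulated peaks and sequences and recovered 100% of the 2000 peaks and 500 planted sites. Versions were samtools 1.23.1, matplotlib 3.10.9, pysam 0.24.0, scipy 1.17.1, pandas 2.3.3, numpy 2.4.6 and Python 3.11.15.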

Additional observations from a re-analysis of the deposited data

How the results depend on the processing

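With 1 library per antibody and line and no read counts, no difference between the lines was checked by replicates, and depth limits what a missing peak means. No paired analysis was possible because there was 1 library per antibody and line, and for the same reason none was left out in turn. PU.1 peaks were more numerous in PU.1+ than in PU.1− at every window tried. For CEBPA the order of the lines turned: PU.1− had fewer peaks than PU.1+ within 20 kb and in gene bodies, and more at 50 and 100 kb, in all and among those called in a single line (7 against 5 and 12 against 6). Counts moved with the distance that assigns a peak to a gene, since a wider window holds more bases.

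For gene bodies alone, 50 kb and 100 kb, respectively, PU.1 peaks of PU.1+ were 11, 35 and 44 (main 21), new PU.1 peaks 11, 29 and 35 (19), shared PU.1 peaks 0, 6 and 9 (2), PU.1 peaks of PU.1− 0, 7 and 12 (3), CEBPA peaks of PU.1+ 8, 41 and 53 (19), shared CEBPA peaks 6, 36 and 47 (15), CEBPA peaks of PU.1− 7, 43 and 59 (17), CEBPA peaks of PU.1− only 1, 7 and 12 (2), and shared PU.1 peaks with CEBPA 0, 5 and 7 (2). Gene bodies alone gave 3 genes with a new PU.1 peak (6), 4 new PU.1 peaks with CEBPA (7), 2 CEBPA peaks of PU.1+ only (4), both at new PU.1 peaks, 0 PU.1 peaks of PU.1− only (1; 3 at 100 kb) and 18.1% of protein-coding genes with a new PU.1 peak (36.7%; 66.5% at 100 kb). With flanks of 50 and 100 kb all 8 genes had a new PU.1 peak, beside 52.7% and 66.5% of protein-coding genes. CEBPA peaks with a CEBP site were 16 at 50 kb (9). New PU.1 peaks with CEBPA were 4 with 50% overlap and 3 with centres within 100 bp. Composite sites were in 8 PU.1 peaks over the whole 400 bp (5). Restricted to peaks nearest to the IRF start, 1 shared PU.1 peak was left. Without *Irf2*, an alternative chosen after the data were seen, there were 10 new PU.1 peaks, 2 of them with CEBPA, and 1 CEBPA peak of PU.1+ only. The other values stayed within 1.5 times.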

Other observations

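Farther from the genes, between 20 and 100 kb, 23 more PU.1 peaks of PU.1+ were listed, 14 of them within 50 kb. *Irf8* had a downstream series of 4 in that nearer range: shared PU.1 peaks at +42.9 kb and +56.4 kb, each overlapping a CEBPA peak in both lines, and new ones at +47.6 kb and +50.2 kb without CEBPA. The peaks at +47.6 kb and +56.4 kb carried the PU.1-type site GAGGAAGT. *Irf8* also had 8 CEBPA peaks between 20 and 50 kb in each line, all shared, 5 of them between −43.7 kb and −34.2 kb in PU.1+, without PU.1 and with *Cox4i1* the nearest protein-coding start. *Irf7*, with no peak within 20 kb, had new PU.1 peaks at +47.1 kb, −52.6 kb and −95.4 kb, each nearest to another protein-coding gene (*Rassf7*, *Deaf1* and *Eps8l2*). *Irf3*, likewise without PU.1 in its window, had new ones at −37.4 kb and −58.0 kb, nearest to *Cpt1c* and *Tsks*. *Irf4* had new PU.1 peaks at +64.4 kb and +65.2 kb, with *Irf4* the nearest start, and *Irf2* had 3 new and 1 shared between 20 and 50 kb. At *Irf1* and *Irf5* no PU.1 peak of PU.1+ lay between 20 and 50 kb.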
